A study of Gallus gallus with 6 samples.

Results

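The SLC25 genes encode the mitochondrial carrier family, and 32 of the 27656 genes in the deposited table were taken as its members because their symbol is SLC25A followed by a number. This rule uses the symbol and no measured value, though it was chosen with earlier results of these data known. Their expression was measured by RNA-seq of cells sorted from the ileum of broiler chickens with KUL01, an antibody used to label chicken macrophages. There were 2 groups. The LPS group had 3 libraries, LPS1, LPS2 and LPS3, from birds injected with lipopolysaccharide (LPS), the endotoxin of Gram-negative bacteria. The LPS+LR21 group had 3 libraries from birds that were injected in the same way and given Lactobacillus reuteri, a gut bacterium that ferments sugars to lactate, by gavage. Its libraries are called here by their column names, LR1_2, LR3 and LR4. The name LR1_2 may stand for a pool, which the labels leave unsaid, and it is counted here as 1 library. All birds had been given LPS, so there was no uninjected group, and neither age nor strain of the birds is given in the labels.

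Mitochondrial carriers are small proteins built from repeated pairs of membrane helices, and most of them sit in the inner mitochondrial membrane. Each moves a particular metabolite, nucleotide or cofactor between the cytosol and the matrix, often by exchange, and so links respiration to the rest of metabolism. In the gut wall, absorptive epithelial cells and macrophages both depend on such exchange, for fatty acid oxidation, amino acid use and ATP supply. The roles named below are those known from mammals.

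Total counts ranged from 31284679 to 45492503 per library, and mitochondrially encoded genes took 12.1% to 17.7% of them, with LR4 highest. LR3 had a count for 18811 genes and the other libraries for 22493 to 24539, so its zeros and low values come from the library with the fewest genes detected. A count of 3, used as the limit of detection, equals 0.0659 to 0.0959 CPM, the count as a rate of the library total. This limit covers counting error only. Macrophage markers were abundant in all libraries, but marker levels differed between the groups. The summed level of 14 macrophage markers was 11136 to 14505 FPKM with LPS alone and 4137, 9013 and 4888 FPKM in LR1_2, LR3 and LR4. FPKM are counts divided by transcript length and library total. The summed level of 14 intestinal epithelial markers was 535 to 968 FPKM with LPS alone and 8430.5, 1793 and 5254 FPKM in LR1_2, LR3 and LR4. In the test of all genes 5 of the 14 epithelial markers were called higher and 1 of the 14 macrophage markers lower. Of all 20745 tested genes, 202 were called higher and 17 lower. All 14 epithelial markers were fitted higher with LPS+LR21 and all 14 macrophage markers lower. An unadjusted p under 0.05 in this test was reached by 14 epithelial and 11 macrophage markers. Over all tested genes the shares were 7.46% higher and 4.6% lower. None of these 28 markers was at 0 in all libraries. The summed T cell markers were 86.5 to 109 FPKM with LPS alone and 112 to 317 FPKM with LPS+LR21, highest in LR3. Of 7 tested fibroblast and smooth muscle markers 2 were called lower, the collagen genes COL1A2 and COL3A1. In this list 5 markers were fitted lower, while the smooth muscle markers ACTA2 and MYH11 were fitted higher. The part of these marker shifts in the SLC25 values was not tested, and in bulk libraries fewer cells of a type and less RNA per cell cannot be told apart.

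All 32 SLC25 genes passed the filter on low counts. A count was present in every library for 29 of the 32, while SLC25A15 had none in LPS2 and SLC25A40 none in LR3. Mean levels over the 6 libraries spanned from 0.102 FPKM for SLC25A47 to 339.9 FPKM for SLC25A6. Of the 32 genes, 9 had a mean of at least 10 FPKM, 13 lay between 1 and 10 FPKM, and 10 lay below 1 FPKM. The order at the top was SLC25A6, SLC25A5, SLC25A3, SLC25A20, SLC25A39 and SLC25A17, as the plot of levels in each library shows. Of these 5 neighbouring pairs, SLC25A39 and SLC25A17, with means of 20.2 and 20.1 FPKM, were the only one whose values overlapped in both groups. Together the 32 genes took 0.13% to 0.152% of all counts with LPS alone and 0.179% to 0.236% with LPS+LR21. LR4 and LR1_2 were highest, and LR3 lay between them and the LPS group.

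**Figure D1:**
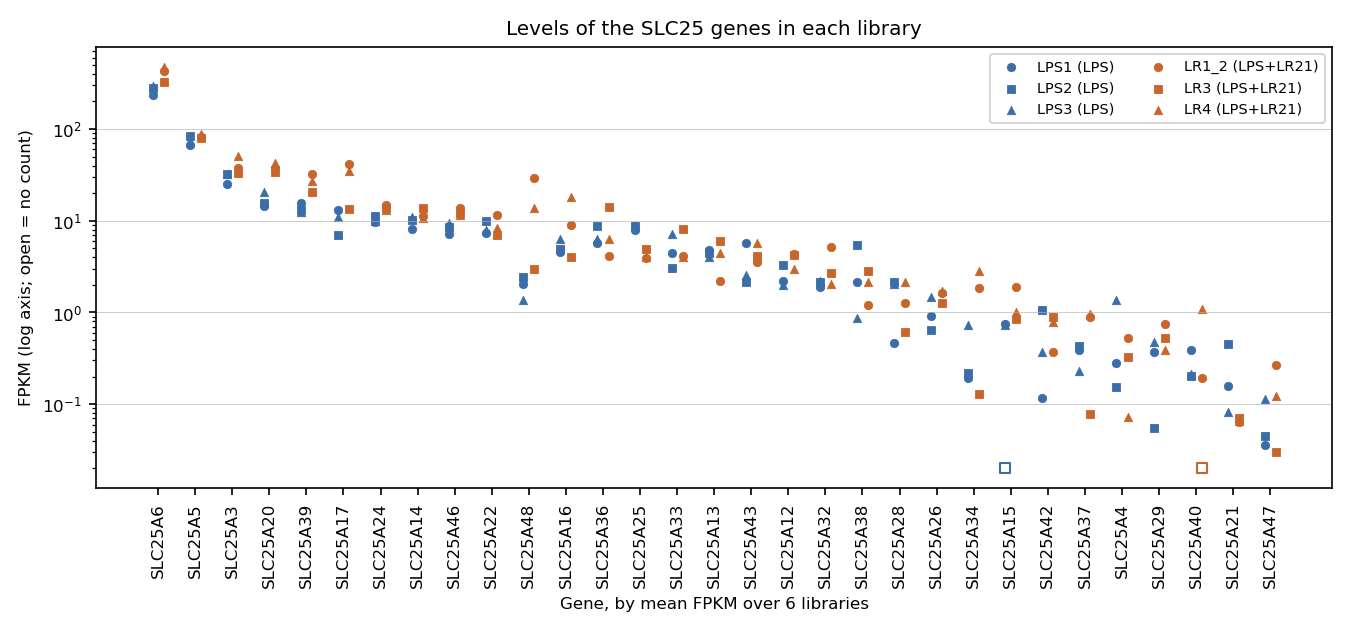
FPKM (log axis) of 31 of the SLC25 genes in each of the 6 libraries, ordered by mean level. Blue points are LPS and orange points LPS+LR21 libraries, and open points at the bottom mark libraries with no count. SLC25A6 and SLC25A5 stand at the top, and the lowest gene, SLC25A47, has a mean of 0.102 FPKM.

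The comparison asked how the expression of these carriers differed when L. reuteri was given to LPS-injected birds. None of the 32 genes was called at an adjusted p under 0.05 by edgeR's quasi-likelihood test, in which 1.06% of all 20745 tested genes were called. At an unadjusted p under 0.05 there were 5 (12.1% of all tested genes), of which SLC25A48, SLC25A20, SLC25A17 and SLC25A39 were higher with LPS+LR21 (7.46% of all tested genes) and SLC25A25 was lower (4.6%). Fitted log2 fold changes were above 0 for 25 genes and below 0 for 7, with a median of 0.41. Scaling by library totals gave 26 above 0, SLC25A22 being the gene that turned. Over all tested genes 43.5% were fitted above 0 and the median was -0.14. Among genes with a mean of at least 1 FPKM the difference was smaller: 17 of 22 SLC25 genes were fitted above 0 with a median of 0.30, beside 54.0% and a median of 0.07 over 9861 genes. The FPKM of the groups did not overlap for 11 SLC25 genes, 9 of them higher and 2 lower with LPS+LR21, while 19.3% of all tested genes did not overlap (12.2% higher and 7.1% lower). With counts scaled by TMM, a normalization for library composition, this held for 8 genes, 6 higher and 2 lower, beside 19.0% of all tested genes (9.77% higher and 9.21% lower).

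**Figure D2:**
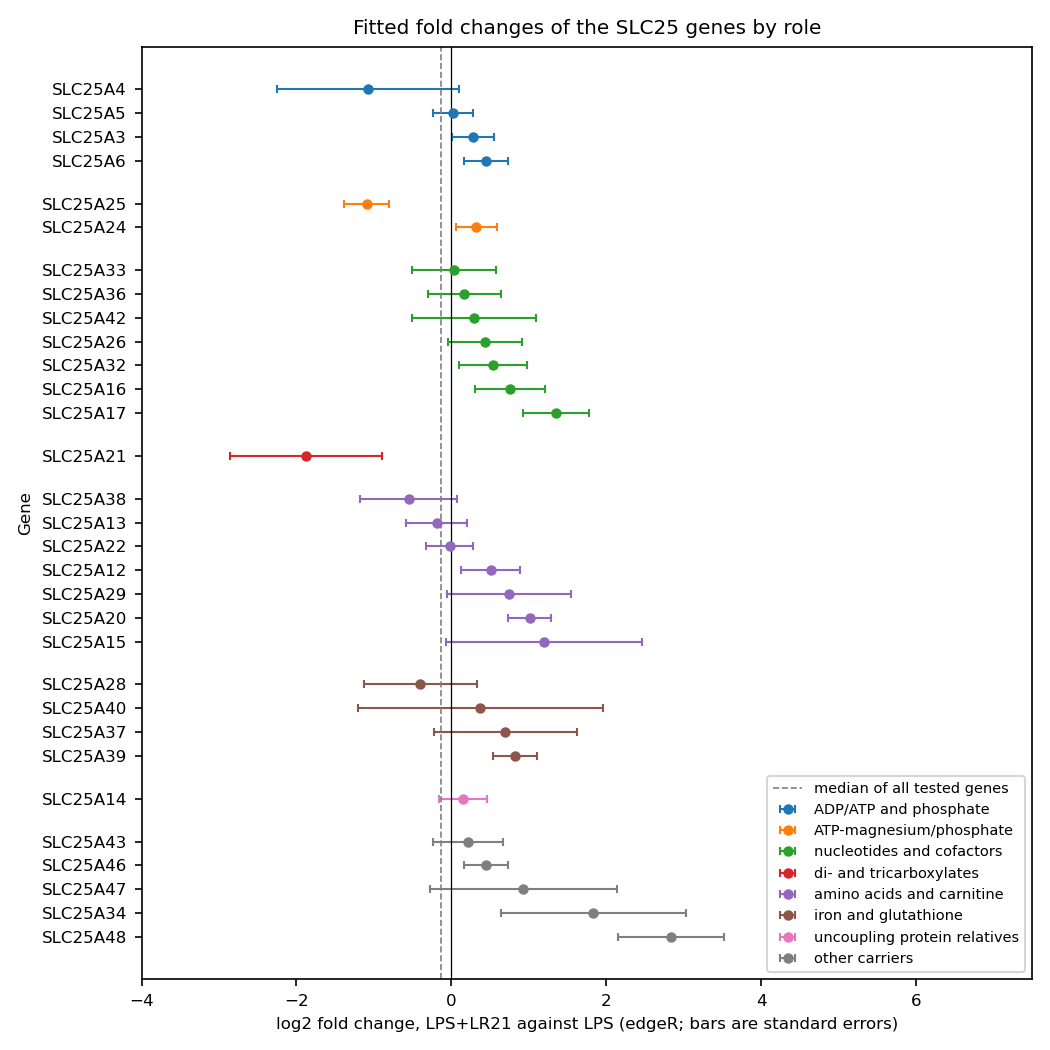
Fitted log2 fold changes (LPS+LR21 against LPS) of 31 of the SLC25 genes with their standard errors, grouped and coloured by role. The solid line marks 0 and the dashed line the median of all tested genes at -0.14. SLC25A48 has the highest value, 2.84, and SLC25A21 the lowest, -1.88.

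The carriers of ADP, ATP and phosphate, which supply the ATP synthase and export its product, were the most abundant of the family. SLC25A6, an ADP/ATP carrier (ENSGALG00010001817, chromosome 1, 129261308 to 129264852, plus strand), had 235, 281 and 296 FPKM in LPS1, LPS2 and LPS3 and 426, 328 and 473 FPKM in LR1_2, LR3 and LR4. All LPS+LR21 values lay above the LPS values, LR3 by the smallest margin. The group means were 271 ± 32.2 and 409 ± 74.0 FPKM (SD, n = 3 each), and the log2 fold change of 0.45 ± 0.29 (SE) did not pass (adjusted p = 0.665). SLC25A5, the ADP/ATP carrier that mammals express in dividing cells (chromosome 4, 16517731 to 16519811, minus strand), had 66.8, 84.0 and 73.5 FPKM with LPS alone and 81.6, 79.9 and 88.2 FPKM with LPS+LR21. These groups overlapped, and the log2 fold change was 0.02 ± 0.26 (SE, adjusted p = 0.992). SLC25A4, the ADP/ATP carrier of mammalian heart and muscle, was low, at 0.281, 0.152 and 1.38 FPKM with LPS alone and 0.523, 0.328 and 0.0729 FPKM with LPS+LR21. Its highest value was in LPS3, its groups overlapped, and its log2 fold change was -1.08 ± 1.17 (SE). Without LPS3 that fold change was 0.44.

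SLC25A6 made up 77.0% to 79.8% of the summed FPKM of SLC25A4, SLC25A5 and SLC25A6 with LPS alone and 83.8%, 80.4% and 84.3% in LR1_2, LR3 and LR4. SLC25A5 made up nearly all of the rest, 19.8% to 23.0% with LPS alone and 15.7% to 19.6% with LPS+LR21. The ranges did not overlap, and among the LPS+LR21 libraries LR3 came closest to the LPS range. These 3 genes are similar in sequence, so the counting could divide shared reads among them and their shares are uncertain. Together they gave 64.7% to 69.8% of the summed FPKM of the family. SLC25A3, the phosphate carrier (ENSGALG00010010588, chromosome 1, 46741081 to 46751557, plus strand), had 24.9, 32.2 and 32.3 FPKM with LPS alone and 37.1, 32.7 and 50.6 FPKM with LPS+LR21. LR3 lay just above the highest LPS library, and with TMM scaling the groups overlapped. Its log2 fold change was 0.28 ± 0.27 (SE, adjusted p = 0.840).

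The calcium-regulated carriers that exchange ATP-magnesium for phosphate, and so set the size of the matrix nucleotide pool, were represented by SLC25A24 and SLC25A25. SLC25A25 (ENSGALG00010028056, chromosome 17, 5470475 to 5485636, minus strand) had 7.84, 8.72 and 8.71 FPKM in LPS1, LPS2 and LPS3 and 3.88, 4.96 and 4.07 FPKM in LR1_2, LR3 and LR4. The values within a group were close together and the groups were well separated, LR3 being the LPS+LR21 library nearest to LPS. The means were 8.42 ± 0.506 and 4.30 ± 0.574 FPKM (SD, n = 3 each), a 1.96-fold difference. The log2 fold change of -1.09 ± 0.29 (SE) had an unadjusted p of 0.00433 and an adjusted p of 0.126 by edgeR. SLC25A24 (chromosome 8, 1198644 to 1242652, minus strand) had 9.73, 11.2 and 9.97 FPKM with LPS alone and 15.0, 13.9 and 13.2 FPKM with LPS+LR21. It stood higher in all LPS+LR21 libraries by FPKM, but the groups overlapped with TMM scaling. FAM102B lies on the opposite strand over 18078 bases of the locus, so the SLC25A24 values are uncertain where strand was not used in counting. FAM102B had 476, 1153 and 836 counts with LPS alone and 442, 2323 and 223 in LR1_2, LR3 and LR4. SLC25A24 had 3196, 3479 and 3616 counts and 5511, 4589 and 3342 counts in the same libraries. The log2 fold change of SLC25A24 was 0.32 ± 0.27 (SE, adjusted p = 0.779). The ratio of SLC25A24 to SLC25A25 FPKM was 1.24, 1.28 and 1.14 with LPS alone and 3.85, 2.80 and 3.24 with LPS+LR21. This ratio does not depend on library scaling, was chosen after the values were seen, and is given without a test. It shares the uncertainty of the SLC25A24 values, LR3 being the library with the most FAM102B counts. By FPKM, SLC25A25 and the summed macrophage markers had the same order with LPS+LR21, lowest in LR1_2 and highest in LR3, an order that 15.6% of all tested genes had. By TMM-scaled CPM SLC25A25 was lowest in LR4, with LR1_2, LR3 and LR4 at -1.21, -0.76 and -1.36 relative to the LPS mean (log2).

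**Figure D3:**
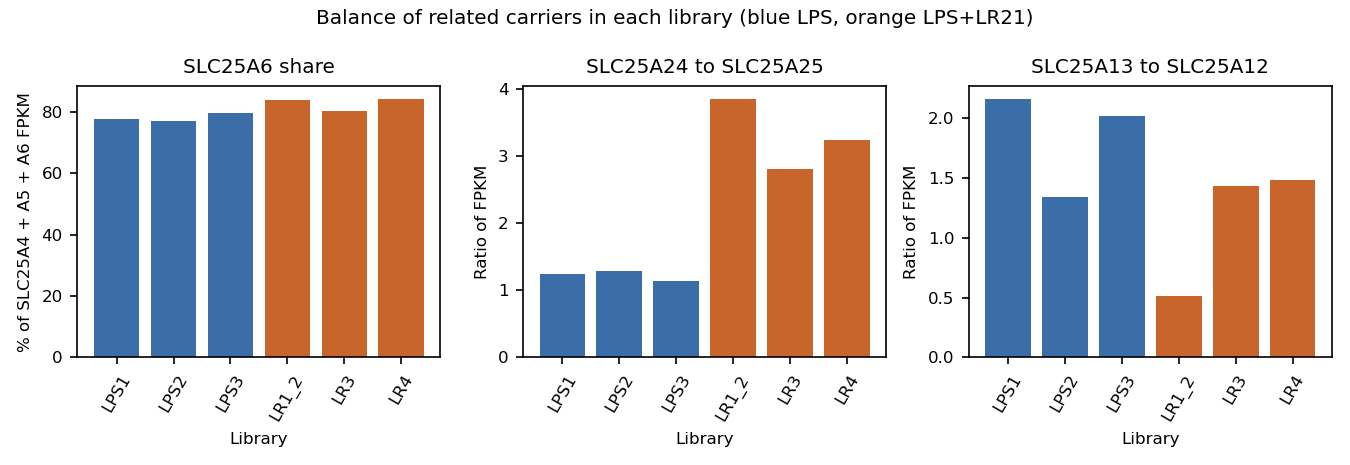
Balance between related carriers in each library, blue for LPS and orange for LPS+LR21. The bars give the share of SLC25A6 in the FPKM of SLC25A4, SLC25A5 and SLC25A6 (%), and the FPKM ratios SLC25A24 to SLC25A25 and SLC25A13 to SLC25A12. The SLC25A24 to SLC25A25 ratio is 1.14 to 1.28 in LPS and 2.80 to 3.85 in LPS+LR21 libraries.

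Carriers of nucleotides and cofactors had fitted values above 0 in 8 of 8 genes, with a median log2 fold change of 0.49, and none was called. The share above 0 was 43.5% of all tested genes, and 54.0% of those with a mean of at least 1 FPKM. SLC25A34, SLC25A43, SLC25A46, SLC25A47 and SLC25A48, grouped as other carriers, were above 0 in 5 of 5, with a median of 0.93. For the nucleotide and cofactor carriers the count was 6 of 8 with limma-voom, where SLC25A33 and SLC25A36 were at -0.23 and -0.43. It was also 6 of 8 without LR3, with these genes at -0.38 and -0.53, 6 of 8 without LPS1, 7 of 8 without LPS2, and 5 of 6 in the test limited to genes averaging 1 FPKM or more. SLC25A17 is the member that mammals place in the peroxisome, where it carries coenzyme A, FAD and NAD, and it was the 1 SLC25 gene with a peroxisomal term in the annotation of the table. SLC25A17 (ENSGALG00010012962, chromosome 1, 49966637 to 49985603, plus strand) had 13.1, 7.07 and 11.1 FPKM with LPS alone and 41.8, 13.4 and 34.4 FPKM in LR1_2, LR3 and LR4. LR1_2 and LR4 were far above the LPS libraries, and LR3 was just above LPS1. The means were 10.4 ± 3.06 and 29.9 ± 14.7 FPKM (SD, n = 3 each). Its log2 fold change was 1.35 ± 0.43 (SE, unadjusted p = 0.0111, adjusted p = 0.199). The gene ST13P5 overlaps it by 1028 bases on the same strand and had a mean of 10176 counts with LPS alone and 8539 with LPS+LR21, so some reads could be shared.

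SLC25A16, linked to coenzyme A supply, had 4.61, 4.91 and 6.35 FPKM with LPS alone and 8.89, 4.02 and 18.2 FPKM in LR1_2, LR3 and LR4. LR3 was below all LPS libraries while LR4 was the highest, and the log2 fold change was 0.76 ± 0.46 (SE, adjusted p = 0.622). SLC25A32, a carrier of folate and FAD, had 1.91 to 2.22 FPKM with LPS alone and 5.12, 2.67 and 2.05 FPKM in LR1_2, LR3 and LR4. DCAF13 overlaps it by 424 bases on the opposite strand, with a mean of 4955 counts with LPS alone and 6826 with LPS+LR21. Some reads could thus be shared where strand was not used. The pyrimidine nucleotide carriers differed between libraries of the same group. SLC25A36 had 5.66 to 8.65 FPKM with LPS alone and 4.08, 14.1 and 6.33 FPKM in LR1_2, LR3 and LR4, and SLC25A33 had 3.03 to 7.18 FPKM and 4.15, 8.12 and 3.99 FPKM. Both were highest in LR3, the library in which the summed T cell markers were also highest. CD3E, CD3D, CD8A, ZAP70 and CD28 were each highest there, while LCK was highest in LR4 and CD4 in LPS1. None of the 7 T cell markers was called. Among the LPS+LR21 libraries the summed macrophage markers were highest in LR3 as well. SLC25A36 had the order LR3, LR4, LR1_2, as did 15.6% of all tested genes. SLC25A33 had the order LR3, LR1_2, LR4, as did 10.4%. The part of any cell type in these values was not tested. SLC25A26, the S-adenosylmethionine carrier that feeds mitochondrial methylation, had 0.647 to 1.49 FPKM with LPS alone and 1.26 to 1.71 FPKM with LPS+LR21. SLC25A42, a coenzyme A carrier, ranged from 0.116 to 1.07 FPKM over all libraries.

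SLC25A21, which carries 2-oxoadipate from lysine and tryptophan breakdown, was the only 1 of the 32 genes grouped here under carriers of dicarboxylates or tricarboxylates. It had 0.160, 0.452 and 0.0820 FPKM with LPS alone and 0.0641, 0.0716 and 0.0656 FPKM in LR1_2, LR3 and LR4. The LPS+LR21 values were all lower, though by a small margin from LPS3, and rested on 19 to 27 counts each. PAX9 overlaps 5058 bases of the locus on the opposite strand, with a mean of 29 counts with LPS alone and 48 with LPS+LR21. PAX9 had 41, 6 and 40 counts in LPS1, LPS2 and LPS3 and 32, 0 and 112 in LR1_2, LR3 and LR4. In the same libraries SLC25A21 had 60, 161 and 34 counts and 27, 27 and 19 counts. The SLC25A21 values are therefore uncertain where strand was not used in counting. The log2 fold change was -1.88 ± 0.98 (SE, adjusted p = 0.526), the lowest fitted value among the 32 genes with all libraries. It rested on LPS2: without that library it was -0.995, above the -1.09 of SLC25A25. The citrate carrier SLC25A1, the dicarboxylate carrier SLC25A10, the oxoglutarate carrier SLC25A11 and the NAD carrier SLC25A51 were not analysed here.

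SLC25A20 was the amino acid or carnitine carrier with the clearest separation. It exchanges acylcarnitines for carnitine and so brings long-chain fatty acids to the matrix for oxidation. SLC25A20 (ENSGALG00010020754, chromosome 12, 11884785 to 11895787, plus strand) had 14.7, 15.8 and 20.7 FPKM in LPS1, LPS2 and LPS3 and 37.3, 34.2 and 42.7 FPKM in LR1_2, LR3 and LR4. The 3 LPS+LR21 libraries were alike, and each lay above every LPS library. The means were 17.0 ± 3.19 and 38.1 ± 4.30 FPKM (SD, n = 3 each), a 2.24-fold difference. No annotated gene overlaps it, and it had a log2 fold change of 1.01 ± 0.28 (SE, unadjusted p = 0.00470, adjusted p = 0.132 by edgeR). On the log2 scale of TMM-scaled CPM, LR1_2 stood 1.05 above the LPS mean and LR3 and LR4 stood 1.02 above it. By FPKM SLC25A20 had the order LR4, LR1_2, LR3, as did 35.6% of all tested genes. The summed epithelial markers, 1793 FPKM in LR3 against 8430.5 and 5254 FPKM in LR1_2 and LR4, were in each of these above the 535 to 968 FPKM of the LPS group. The summed macrophage markers, 4137, 9013 and 4888 FPKM in LR1_2, LR3 and LR4, were each below the 11136 to 14505 FPKM with LPS alone. Any part of these cell types in the SLC25A20 values was not tested.

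The aspartate/glutamate carriers SLC25A12 and SLC25A13 serve the malate-aspartate shuttle, which moves reducing equivalents of NADH to the matrix. SLC25A12 had 2.22, 3.31 and 2.00 FPKM with LPS alone and 4.34, 4.19 and 2.97 FPKM in LR1_2, LR3 and LR4. SLC25A13 had 4.80, 4.43 and 4.04 FPKM with LPS alone and 2.22, 6.02 and 4.41 FPKM in LR1_2, LR3 and LR4. Both overlapped between groups, and their log2 fold changes were 0.51 ± 0.38 and -0.19 ± 0.40 (SE, adjusted p = 0.732 and 0.948). SLC25A13 exceeded SLC25A12 in 5 libraries, by 1.34 to 2.16 times in the LPS group, while in LR1_2 the ratio was 0.511. SLC25A12 shares its locus with 4 genes on the opposite strand, among them CYBRD1 with a mean of 5486 counts with LPS alone and 13153 with LPS+LR21. DYNC1I1 overlaps SLC25A13 by 23688 bases on the opposite strand, with 274 counts in LR1_2 and 28 to 89 in the other libraries. The values of both carriers and their ratio are therefore uncertain where strand was not used in counting.

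SLC25A22, a glutamate carrier, had 7.35 to 9.89 FPKM with LPS alone and 7.07 to 11.6 FPKM with LPS+LR21 and a log2 fold change of -0.02 ± 0.30 (SE), which was 0.11 when scaled by library totals. SLC25A38, which brings glycine to the matrix for haem synthesis, had 2.13, 5.48 and 0.860 FPKM with LPS alone and 1.20, 2.85 and 2.12 FPKM with LPS+LR21, a spread within each group larger than the difference between them. Its log2 fold change was -0.55 ± 0.63 (SE), and 0.32 without LPS2. SLC25A15, the ornithine carrier of the urea cycle, had 154, 0 and 166 counts with LPS alone and 442, 178 and 161 with LPS+LR21. That is 0.741, 0 and 0.723 FPKM against 1.89, 0.852 and 1.00 FPKM. All LPS+LR21 values were higher, but the group difference of 1.20 ± 1.26 (SE, log2) was within the spread that the empty LPS2 library brought. SLC25A29, a carrier of basic amino acids, stayed at or below 0.757 FPKM in all libraries.

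The glutathione carrier SLC25A39 protects the matrix from oxidation, and its relative SLC25A40 is regarded as its paralogue of the same function. SLC25A39 (ENSGALG00010024858, chromosome 27, 2636949 to 2641382, plus strand) had 15.4, 13.1 and 12.6 FPKM with LPS alone and 32.6, 20.6 and 27.1 FPKM in LR1_2, LR3 and LR4. Every LPS+LR21 library was above every LPS library, in the order LR1_2, LR4, LR3, which 17.8% of all tested genes had. The summed epithelial markers also stood in this order, though SLC15A1, ANPEP and MEP1A among them were highest in LR4. The part of epithelial cells in the SLC25A39 values was not tested. The means were 13.7 ± 1.53 and 26.8 ± 6.00 FPKM (SD, n = 3 each), and the log2 fold change was 0.83 ± 0.29 (SE, unadjusted p = 0.0169, adjusted p = 0.243). SLC25A40 was low, at 0.388, 0.205 and 0.213 FPKM with LPS alone and 0.191, 0 and 1.09 FPKM in LR1_2, LR3 and LR4, without a separation of the groups. In each library in which both were detected, SLC25A39 stood at least 24.9 times above SLC25A40 in FPKM.

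The mitoferrins SLC25A28 and SLC25A37 import iron, SLC25A37 being the form of developing red cells in mammals. SLC25A28 had 0.464, 2.17 and 2.02 FPKM with LPS alone and 1.26, 0.613 and 2.15 FPKM with LPS+LR21. SLC25A37 had 0.393, 0.429 and 0.231 FPKM with LPS alone and 0.902, 0.0781 and 0.967 FPKM in LR1_2, LR3 and LR4. Neither gene separated the groups. Of the red cell markers, the alpha globin gene HBA1 had 0.445, 1.45 and 5.39 FPKM with LPS alone and no count with LPS+LR21 (adjusted p = 0.0607), and the beta globin gene HBBA had at most 0.850 FPKM in any library. The part of red cells in the SLC25A37 values was not tested. Their log2 fold changes were -0.40 ± 0.73 and 0.70 ± 0.92 (SE, adjusted p = 0.934 and 0.897).

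SLC25A48, for which choline transport to the matrix has been described in mammals, had the largest fold difference of the family. SLC25A48 (ENSGALG00010013042, chromosome 13, 14853928 to 14937339, minus strand) had 2.06, 2.41 and 1.36 FPKM in LPS1, LPS2 and LPS3 and 29.6, 2.95 and 13.7 FPKM in LR1_2, LR3 and LR4. LR1_2 and LR4 stood well above the LPS libraries, whereas LR3 lay just above LPS2. The means were 1.94 ± 0.536 and 15.4 ± 13.4 FPKM (SD, n = 3 each), a 7.92-fold difference, with a log2 fold change of 2.84 ± 0.68 (SE, unadjusted p = 0.00223, adjusted p = 0.0891). Without LR1_2 the log2 fold change was 1.84 and without LR3 it was 3.46. The LPS+LR21 libraries stood in the order LR1_2, LR4, LR3, which 7 SLC25 genes (21.9%) and 17.8% of all tested genes had. It was also the order of the summed epithelial markers. The part of epithelial cells in the SLC25A48 values was not tested. CXCL14 and an unnamed gene overlap SLC25A48 on the opposite strand, with at most 27 and 87 counts in any library.

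**Figure D4:**
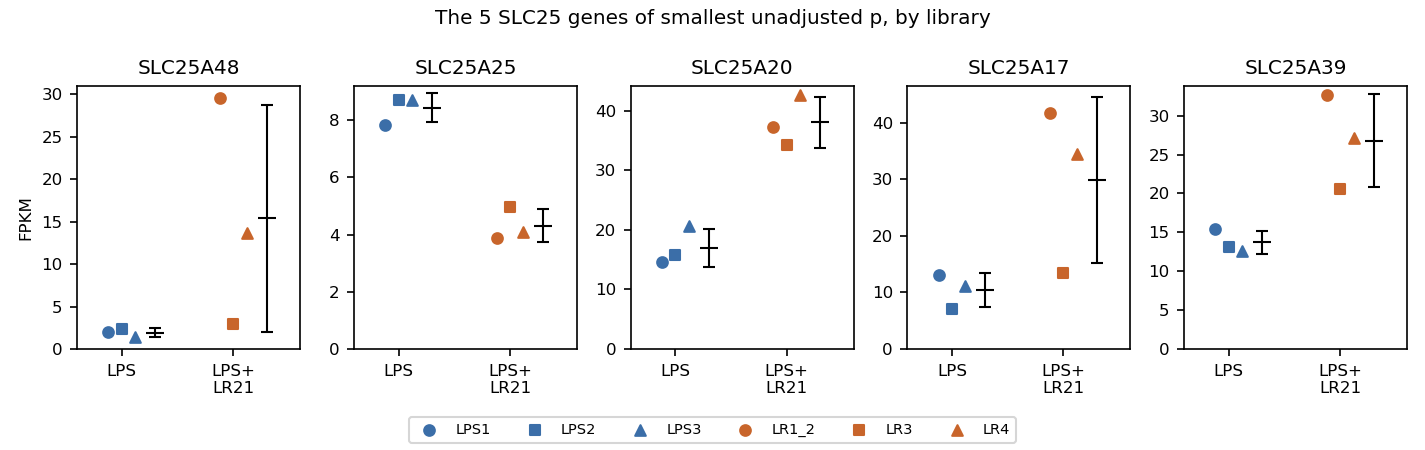
FPKM in each library of the 5 SLC25 genes with an unadjusted p under 0.05, with the mean and SD of each group in black (n = 3). LR3 lies close to the LPS libraries for SLC25A48 and SLC25A17 and with the other LPS+LR21 libraries for SLC25A20 and SLC25A25.

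The remaining carriers have no settled substrate or other functions. SLC25A46, an outer-membrane protein that takes part in mitochondrial dynamics, had 7.21, 8.5 and 9.47 FPKM with LPS alone and 13.7, 12.2 and 11.6 FPKM with LPS+LR21. All LPS+LR21 values were higher by FPKM but overlapped with TMM scaling, and the log2 fold change was 0.45 ± 0.29 (SE, adjusted p = 0.665). SLC25A14, a relative of the uncoupling proteins, had 8.16 to 11.1 FPKM with LPS alone and 10.6 to 13.6 FPKM with LPS+LR21. SLC25A43 had 2.13 to 5.68 FPKM and 3.56 to 5.72 FPKM in the same groups. SLC25A34 had 0.194, 0.221 and 0.730 FPKM with LPS alone and 1.85, 0.128 and 2.84 FPKM in LR1_2, LR3 and LR4. LR3 was the lowest of all 6 libraries for SLC25A34 while LR1_2 and LR4 were the highest, and the log2 fold change was 1.83 ± 1.19 (SE, adjusted p = 0.669). SLC25A47, a carrier enriched in mammalian liver, reached at most 0.267 FPKM.

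The calls depended on the tool and on LR3. SLC25A48, SLC25A17 and SLC25A20 were called higher and SLC25A25 lower by DESeq2 (adjusted p = 0.000212, 0.0331, 0.0165 and 0.0238), which called 6.56% of all genes, 4.83% higher and 1.73% lower. The same 4 genes were called by limma-voom with library quality weights (adjusted p = 0.00616, 0.0156, 0.0234 and 0.0189), which called 9.43% of all genes, 5.11% higher and 4.32% lower. They were also called by edgeR without LR3 (adjusted p = 0.00181, 0.0118, 0.0478 and 0.0474), where 8.65% of all genes were called, 4.83% higher and 3.82% lower. Leaving out any other single library left no gene of the whole table called. Restricted to genes with a mean of at least 1 FPKM, edgeR called SLC25A25 (adjusted p = 0.0495) and 2.9% of all genes, 0.515% as lower. Limma-trend on log2(FPKM + 0.1) called SLC25A20 (adjusted p = 0.0450) and 2.13% of all genes, 1.9% as higher. SLC25A39 was called by none of the settings run, with adjusted p from 0.0539 to 0.767. The direction of these 5 genes was the same under every setting run.

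**Figure D5:**
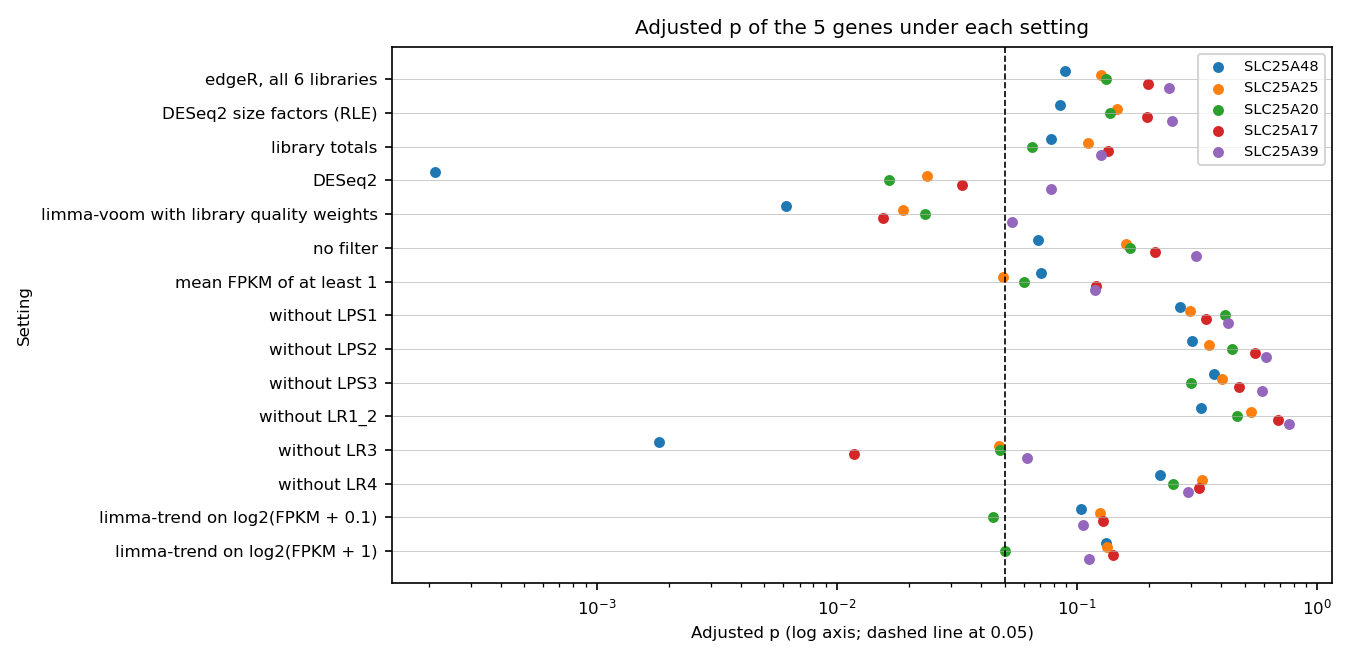
Adjusted p (log axis) of the 5 SLC25 genes with an unadjusted p under 0.05, under each processing setting (rows). The dashed line marks 0.05. SLC25A48, SLC25A17, SLC25A20 and SLC25A25 lie below it with DESeq2, with limma-voom and without LR3.

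The members lay on 17 chromosomes in the coordinates of the deposited table. SLC25A5 and SLC25A43 were neighbours on chromosome 4, 850 bases apart on the minus strand. Their log2 fold changes were 0.02 and 0.22. SLC25A29 and SLC25A47 overlapped by 9890 bases on opposite strands of chromosome 5, so their low values cannot be told apart where strand was not used. The gene ontology annotation in the table names the mitochondrion for 22 of the 32 genes and its inner membrane for 13, and 5 genes have no annotation. SLC25A20 and SLC25A25 have a mitochondrial term, SLC25A17 has peroxisomal terms, and SLC25A39 and SLC25A48 have no annotation.

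Genes that work with the carriers were described in the same way. MTCH2, an outer-membrane insertase that belongs to the same protein family under another name, had 56.4, 49.4 and 49.7 FPKM with LPS alone and 167, 74.9 and 108 FPKM in LR1_2, LR3 and LR4 (log2 fold change 1.03 ± 0.34 SE, adjusted p = 0.215). Of 10 measured genes of the import route that inserts carriers into the inner membrane, none was called and 9 were fitted above 0, with a median of 0.72. Those of smallest p were the intermembrane chaperones TIMM8A and TIMM9, with log2 fold changes of 0.92 and 1.35, and the receptor TOMM70, with 0.81. Of 21 other mitochondrial transport genes none was called, 16 were fitted above 0 and the median was 0.51. The calcium uniporter MCU, the sideroflexin SFXN2 and the pyruvate carrier subunit MPC1, listed as MPC1L, had log2 fold changes of 1.47, 1.79 and 1.02, and the sideroflexin SFXN3 had -1.07. At an unadjusted p under 0.05 by edgeR there were 4 import genes, all higher, and 5 other transport genes, 4 higher and 1 lower. Over all tested genes the shares were 7.46% higher and 4.6% lower. Fitted values were above 0 for 43.5% of all tested genes, with a median of -0.14. For those with a mean of at least 1 FPKM the share was 54.0% and the median 0.07.

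Of 28 tested enzymes that supply or use what the carriers move, 2 were called higher, beside 0.974% of all tested genes called higher, and none lower. NMNAT3, a mitochondrial enzyme of NAD synthesis, had 1.11, 1.43 and 1.54 FPKM with LPS alone and 8.77, 4.90 and 9.71 FPKM in LR1_2, LR3 and LR4. It rose by 2.35 (log2, adjusted p = 0.0381 by edgeR). The mitochondrial creatine kinase CKMT1A, listed as CKMT1B, uses ATP handed over by the ADP/ATP carriers. It had 21.97 to 43.8 FPKM with LPS alone and 218, 84.6 and 215 FPKM in LR1_2, LR3 and LR4, and rose by 2.27 (adjusted p = 0.0435 by edgeR). Both genes were lowest in LR3 among the LPS+LR21 libraries. Neither call was made when a library other than LR3 was left out, but then no gene of the whole table was called. The alanine aminotransferase GPT2 came next by p, with a log2 fold change of 1.73 (adjusted p = 0.126). It was followed by enzymes with lower values in all LPS+LR21 libraries, FECH of haem synthesis at -1.40 (adjusted p = 0.135) and the malic enzyme ME1 at -1.21 (adjusted p = 0.159). At an unadjusted p under 0.05 by edgeR there were 9 of the 28 enzymes, 7 higher and 2 lower. Over all tested genes the share was 12.1%, with 7.46% higher and 4.6% lower. CPT2 and CRAT, enzymes of acylcarnitine metabolism that work beside SLC25A20, had fitted values of 0.80 and 0.87 (log2), neither past the threshold (adjusted p = 0.297 and 0.289). CPT1A, the entry enzyme of that route, had -0.13. The shuttle enzymes GOT1, GOT2, MDH1 and MDH2 had 0.67, 0.20, 0.16 and 0.56, none past the threshold. The median of the 28 enzymes was 0.19. FECH, ME1, CPT2, CRAT, CPT1A and the shuttle enzymes were named after their values were seen.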

How the data were processed

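RNA-seq libraries were made from polyadenylated RNA of the sorted cells, per the labels' protocols. Software named in the submitters' processing notes comprises edgeR, StringTie 1.3.4d, HISAT2 2.0.4 and cutadapt 1.9, with no role for any of them. Genome build and strand handling are not given in the sources used here. Per the file headers, the deposited table gives raw counts and FPKM per gene. There were 3 columns of FPKM, those of the LPS+LR21 libraries, that could not be tied to a sample and were left unused. FPKM was therefore calculated anew in every library from its counts and total, with each gene's length taken from the ratio of count to FPKM that the authors deposited for LPS1, LPS2 and LPS3. In 9889 genes with at least 100 counts in each of these, 100% of the new values were within 5% of the deposited ones.

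The LPS+LR21 columns carry numbers other than those in the titles and served as 3 replicates without identity, with LR1_2 taken as 1 library though its name may stand for a pool. Nothing in the labels ties each library to its own bird, so the p-values rest on a spread between libraries that may be technical. Counts were tested with edgeR 4.0.16 in R 4.3.3 (filterByExpr, TMM factors of 0.928 to 1.19, glmQLFit and glmQLFTest, two-sided, Benjamini-Hochberg adjustment over all 20745 tested genes, threshold 0.05). Standard errors were obtained from the fold change and its F statistic. The scripts were tested on simulated counts. Alternatives were DESeq2 1.42.0, limma 3.58.1 (voom with quality weights, and trend on log2 FPKM with 0.1 or 1 added), other scalings and filters, and leaving out each library.

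The members and lists were chosen with earlier results of these data known. Described in full were the 6 genes of smallest p in each direction, the 6 of highest mean FPKM and the carriers of best known role. From the import, other transport and enzyme lists the called genes and the 3 of smallest p were named, most with a fold change only. Marker genes were given mainly as sums and counts. Other genes are given by range, or were picked out after their values were seen. Listed genes were matched by symbol or by RefSeq synonym (assembly GRCg7b), the latter for 7 genes, among them the epithelial marker KRT20, listed as KRT40. All 32 members matched RefSeq by Entrez identifier. Values of 1 member are not reported here, though it is included in the counts and medians over the 32 genes.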

Additional observations from a re-analysis of the deposited data

How the results depend on the processing

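No paired analysis was possible because the LPS+LR21 columns do not carry the replicate numbers of the labels. The count of called SLC25 genes, 0 in the main test, was 4 with DESeq2, 4 with limma-voom and quality weights, 1 at a mean of at least 1 FPKM, 1 with limma-trend on log2(FPKM + 0.1), and 0 to 4 when 1 library was left out (4 without LR3). Limma-trend was counted for calls after the data had been seen. Called genes over the whole table numbered 219 in the main test, 1361 with DESeq2, 1956 with limma-voom, 441 with limma-trend on log2(FPKM + 0.1), 333 with limma-trend on log2(FPKM + 1), and 0 to 1945 when 1 library was left out (1945 without LR3).

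Of 438 fold changes under alternatives, 396 kept direction and side of the threshold, 14 gained a call and 28 turned sign, in 12 genes, none of them called under any setting run. SLC25A22 turned to 0.0259 with DESeq2 size factors and with DESeq2, 0.11 with library totals, 0.0579 with limma-voom, and 0.0860 and 0.0794 with limma-trend. With limma-voom, SLC25A28 turned to 0.0651, SLC25A33 to -0.23, SLC25A36 to -0.43 and SLC25A40 to -0.33 (-0.14 with limma-trend on log2(FPKM + 0.1)). At a mean of at least 1 FPKM, SLC25A5 turned to -0.0455 and SLC25A33 to -0.0405. When 1 library was left out, the log2 fold change ranged from -1.67 to 0.44 for SLC25A4, -0.0453 to 0.16 for SLC25A5, -0.58 to 0.13 for SLC25A13, -0.27 to 0.21 for SLC25A22, -0.38 to 0.45 for SLC25A33, -0.53 to 0.51 for SLC25A36, -0.97 to 0.32 for SLC25A38, -1.42 to 1.01 for SLC25A40, -0.17 to 1.32 for SLC25A42, -0.0516 to 0.79 for SLC25A43 and -0.0781 to 1.66 for SLC25A47. The cause was not tested. Library totals moved the median of all genes from -0.14 to 0.02. The SLC25 median stood 0.54 above that of all genes in the main test and 0.57 above it with library totals. Over the settings run this difference was lowest, 0.24, at a mean of at least 1 FPKM and highest, 0.68, without LR4. With limma-trend on log2(FPKM + 1) it was 0.30. Some of the 10 genes below 1 FPKM rest on few counts, such as SLC25A47 with 10 to 99 per library. Others had more counts but differed widely between libraries, such as SLC25A15 with 0 in LPS2 and 442 in LR1_2. Differences in these genes may not be detectable at this depth and spread.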
